A study of Rattus norvegicus with 32 samples.

Results

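The genes described here are those of the proteasome and its partners: every probe of the array whose platform gene symbol begins with Psma, Psmb, Psmc, Psmd, Psme, Psmf or Psmg followed by a number. Of 33849 gene probes, 54 matched. A probe annotated to several genes was set aside, which left 53 probes for 45 genes out of 12573 named genes. They comprised 7 core alpha subunits, 5 constitutive core beta subunits, the 3 immunoproteasome subunits Psmb8, Psmb9 and Psmb10, 6 regulatory ATPases, 11 regulatory non-ATPase subunits, 4 activators, 1 inhibitor and 6 assembly chaperones. The other 2, Psmc3ip and Psme3ip1, are named after members but are not subunits, and Psmc3ip is counted among the members tested below. Psma8, Psmb5, Psmb6, Psmb11 and Psmg3 were not analysed here, since no probe used carried their symbols, and Psmb5 and Psmb6 are constitutive catalytic subunits.

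Expression was measured in CA3 pyramidal neurons of the hippocampus that were cut out by laser from the brains of adult male Sprague-Dawley rats and were negative for Fluoro-Jade, a stain for degenerating neurons. Rats had a sham operation (SHAM), a moderate fluid percussion traumatic brain injury (TBI), or the same injury after metyrapone at 100 mg/kg (TBI+MT) or carbenoxolone at 30 mg/kg (TBI+CB), and were examined at 4 or 24 h. Metyrapone blocks glucocorticoid synthesis and carbenoxolone inhibits 11-beta-hydroxysteroid dehydrogenase, so the comparisons ask how injury, and injury with altered glucocorticoid supply, bore on gene expression in surviving neurons. Each of the 8 groups held 2 pools of captured neurons from several rats, and each pool was hybridised to duplicate arrays, 32 in all. Sham and TBI rats received saline according to the methods, while the labels call the 4 h sham rats untreated, and the 2 sources give different intervals between injection and injury. A value below is the spot intensity divided by the array median, averaged over the duplicate arrays, and differences are on the log2 scale. Where 2 values are given for a group they are pool 1 and pool 2 in that order. Pools are the replicates (n = 2 per group), so p-values measure only the spread between pools.

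The proteasome is the protease that removes ubiquitin-tagged, misfolded and short-lived regulatory proteins. Its barrel-shaped core is built of outer alpha rings and inner beta rings that carry the active sites. A regulatory particle of ATPases (Psmc genes) and non-ATPase subunits (Psmd genes) recognises, unfolds and feeds in the substrate. Activators encoded by Psme genes can cap the core instead, and dedicated chaperones (Psmg genes, Psmd5, Psmd9 and Psmd10) assist assembly. Interferon induces Psmb8, Psmb9 and Psmb10, which replace the constitutive catalytic subunits to form the immunoproteasome, together with the activator subunits Psme1 and Psme2. In neurons the system serves protein quality control and synaptic remodelling, and many subunit genes respond to the transcription factors Nfe2l1 and Nfe2l2.

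The motifs of both kinds of control were looked for in the promoters. RefSeq promoters of the GRCr8 assembly, from 250 bases before to 50 after the start, were at hand for 41 of the 45 genes and were searched on both strands. The core of the antioxidant response element (TGACNNNGC), through which Nfe2l1 and Nfe2l2 act, occurred in 6 of the 41 (14.6%): Psma3, Psmb2, Psmd1, Psmd3, Psmd9 and Psme4. It occurred in 12.1% of all 33469 promoters. The core of the interferon response element (GAAA, any 2 bases, GAAA) occurred in 7 of the 41 (17.1%): Psma4, Psmb3, Psmb8, Psmb10, Psmd7, Psme2 and Psmg4. It occurred in 3.92% of all promoters. Printed are 6 of the stretches that carry a match, from 150 bases before to 10 after the start, in the direction of the gene, with matches on either strand in capitals. The first 3 show the antioxidant core in a chaperone, a core subunit and an activator, and the last 3 the interferon core in inducible members. They are Psmd9 at chr12:39018255-39018414 on the reverse strand, Psma3 at chr6:95219599-95219758 on the forward strand, Psme4 at chr14:108706493-108706652 on the forward strand, Psmb8 at chr20:4657022-4657181 on the reverse strand, Psmb10 at chr19:50743283-50743442 on the reverse strand and Psme2 at chr15:33052742-33052901 on the reverse strand. A match is a run of letters and was not tested as a binding site.
Psmd9: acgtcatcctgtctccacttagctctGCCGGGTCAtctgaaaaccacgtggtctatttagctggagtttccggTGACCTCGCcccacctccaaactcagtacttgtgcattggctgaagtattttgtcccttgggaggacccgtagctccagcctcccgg
Psma3: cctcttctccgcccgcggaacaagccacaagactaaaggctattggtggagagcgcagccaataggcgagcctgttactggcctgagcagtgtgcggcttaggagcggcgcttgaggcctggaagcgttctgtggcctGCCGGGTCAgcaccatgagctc
Psme4: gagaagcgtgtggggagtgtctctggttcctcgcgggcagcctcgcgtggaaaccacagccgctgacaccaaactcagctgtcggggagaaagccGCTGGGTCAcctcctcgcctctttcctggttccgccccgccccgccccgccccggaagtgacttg
Psmb8: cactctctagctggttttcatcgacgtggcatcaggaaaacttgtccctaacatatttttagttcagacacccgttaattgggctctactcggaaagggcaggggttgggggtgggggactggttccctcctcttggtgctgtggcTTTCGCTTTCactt
Psmb10: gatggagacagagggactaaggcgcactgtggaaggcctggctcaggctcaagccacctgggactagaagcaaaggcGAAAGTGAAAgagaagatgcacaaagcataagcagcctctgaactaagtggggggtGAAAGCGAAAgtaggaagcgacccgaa
Psme2: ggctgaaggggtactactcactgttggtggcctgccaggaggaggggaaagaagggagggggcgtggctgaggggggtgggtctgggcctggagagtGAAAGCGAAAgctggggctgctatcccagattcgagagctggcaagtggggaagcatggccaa

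To be tested, a probe had to exceed background on every one of the 4 arrays of some group. This left 17635 probes and 41 of the 45 genes, and 1 probe stood for each gene. The 4 genes not kept were Psmc3, Psmd10, Psmg4 and Psme3ip1. Psmc3, an ATPase of the regulatory particle, was above background on 8 of 32 arrays and ranged from 0.239 to 1.07 array medians over the pools. The captured material was checked against marker genes. Grik4, Camk2a, Grin1 and Slc17a7 of pyramidal neurons were above background on all 32 arrays, whereas Snap25 was on none and Neurod2 on 4. Marker genes of other cells were also read, with summed levels over the pools of 97 to 505 array medians for astrocytes, 46 to 213 for oligodendrocytes, 66.6 to 137 for interneurons and 24.6 to 87 for endothelium and pericytes. The pyramidal neuron markers summed to 232 to 619. Of the interneuron markers Gad1 alone read 51.8 to 100, while Gad2 was above background on 1 array and Slc32a1 on 4. Levels of different probes are not comparable, so the sums do not rank the cell types. As in any bulk sample, fewer cells of a type and less RNA per cell cannot be told apart.

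Arrays differed in brightness, with 26.2% to 66.0% of probes above background, and proteasome genes moved with it. In 6 of the 8 groups most of the 41 members were higher in the pool with more probes above background. In these groups 43.8% to 80.0% of all probes were higher in that pool. The widest gap was in TBI+CB at 24 h, where pool 1 had 58.0% and pool 2 had 30.2% of probes above background. There 39 of 41 members were higher in pool 1 (80.0% of all probes), by a median of 1.91 on the log2 scale (all probes 1.08). In TBI+MT at 24 h the pools had 27.7% and 45.9%. There 34 members were higher in the brighter pool (65.9% of all probes), by a median of 1.45 (all probes 0.79). In SHAM and TBI at 4 h only 14 and 12 members were higher in the brighter pool, as were only 34.5% and 32.3% of all probes. Psma7, a core alpha subunit, and Psme3, an activator, were higher in the dimmer pool in all 8 groups, and Psmb8 was in 7 of 8. For Psme3 this held for the probe used. Its dim second probe read 4.01 in the brighter and 1.27 in the dimmer pool of TBI+CB at 24 h. In TBI+MT at 4 h that probe read 2.61 and 0.542 in the same order, but 0.954 and 1.28 in SHAM at 4 h. Psmd4, Psmd6 and Psmg1 were higher in the brighter pool in all 8.

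**Figure D1:**
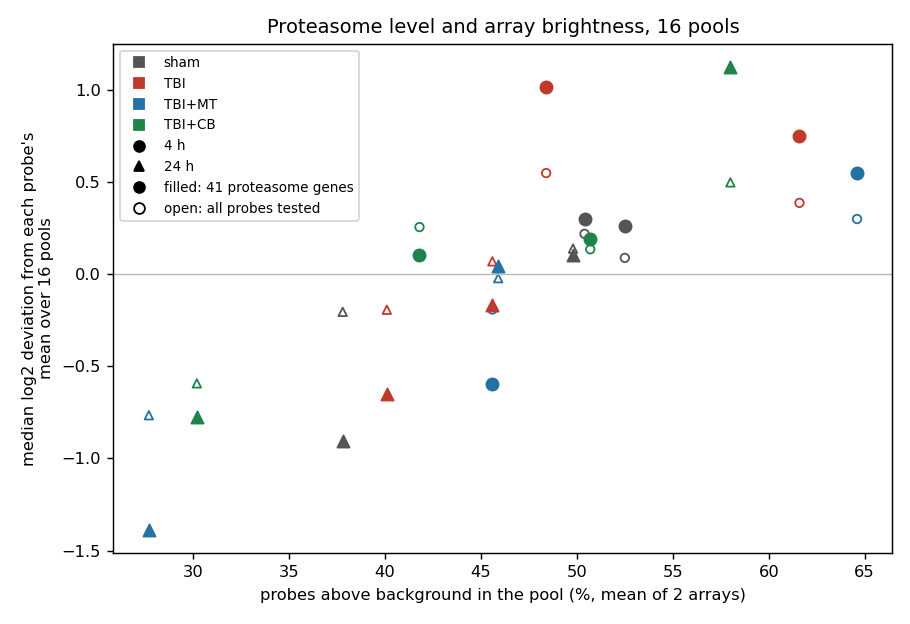
Each pool is placed by its percentage of probes above background (x axis, mean of its duplicate arrays) and by the median log2 deviation of the 41 proteasome genes (filled) or of all probes tested (open) from each probe's mean over the 16 pools (y axis). The lowest filled point, TBI+MT pool 1 at 24 h with -1.39, has the fewest probes above background, and the highest, TBI+CB pool 1 at 24 h with 1.12, lies far from its partner at -0.77.

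Among the probes used, Psmd7 of the regulatory lid varied least over the 16 pools (SD 0.27 on the log2 scale), and Psmb3, Psmc2 and Psme3 were also steady (SD 0.36, 0.36 and 0.37). Psmc6 varied most (SD 1.63). The SD was under 0.5 in 8 members and over 1 in 19. Of the 41 members, 21 were above background on all 32 arrays.

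At 4 h after injury alone the proteasome genes as a group had higher values than in sham. Of 41 members, 37 were higher in TBI, against 69.1% of all probes tested, and the median difference was 0.63 against 0.33 for all probes. Over 2-fold higher were 10 members (15.9% of all probes), and none was over 2-fold lower. In 26 members both TBI pools exceeded both sham pools (36.5% of all probes). No member passed an adjusted p of 0.05 in limma (0.0% of all probes), and none had an unadjusted p under 0.05 (3.34%). Quantile normalization moved the median of all probes to 0.032, and the members then stood 0.18 above it, against 0.30 with division by the array median.

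The differences at 4 h were shared among the classes. Class medians were 0.71 for the core alpha subunits, 0.44 for the core beta subunits, 0.53 for the ATPases, 0.51 for the non-ATPase subunits, 0.36 for the activators 1.10 for the immunoproteasome subunits and 1.29 for the assembly chaperones. Psmd9, a chaperone of regulatory particle assembly, read 3.51 and 3.39 in sham and 7.5 and 10.9 in TBI, a difference of 1.39 (SE 0.67, adjusted p = 0.936 in limma). The groups were well apart, with sham pools almost equal. Psmg2, a chaperone of alpha ring assembly, read 2.35 and 2.22 in sham and 4.84 and 6.96 in TBI, a difference of 1.35 (SE 0.87, adjusted p = 0.936 in limma). Psma5, a bright core alpha subunit, read 49.5 and 62.2 in sham and 89.8 and 141 in TBI, again without overlap. At the lower end, Psmd8, a lid subunit, read 3.37 and 3.25 in sham and 5.08 and 0.999 in TBI, a difference of -0.56 (SE 0.96) on which the TBI pools lay on opposite sides of sham. Psmc3ip, a recombination factor named after an ATPase it binds, read 24.3 and 33.9 in sham and 15 and 34.4 in TBI, a difference of -0.34 (SE 0.66).

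Slide numbers in the file headers fell into 3 runs, taken here as batches, although no source says that they were. Both sham pools and TBI pool 1 at 4 h shared a run, and TBI pool 2 lay in the run of the 4 h drug groups. With the run as a block, which sets sham against TBI pool 1 only, the median of the members was 0.62 (all probes 0.20), and Psmd8 turned to 0.62.

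**Figure D2:**
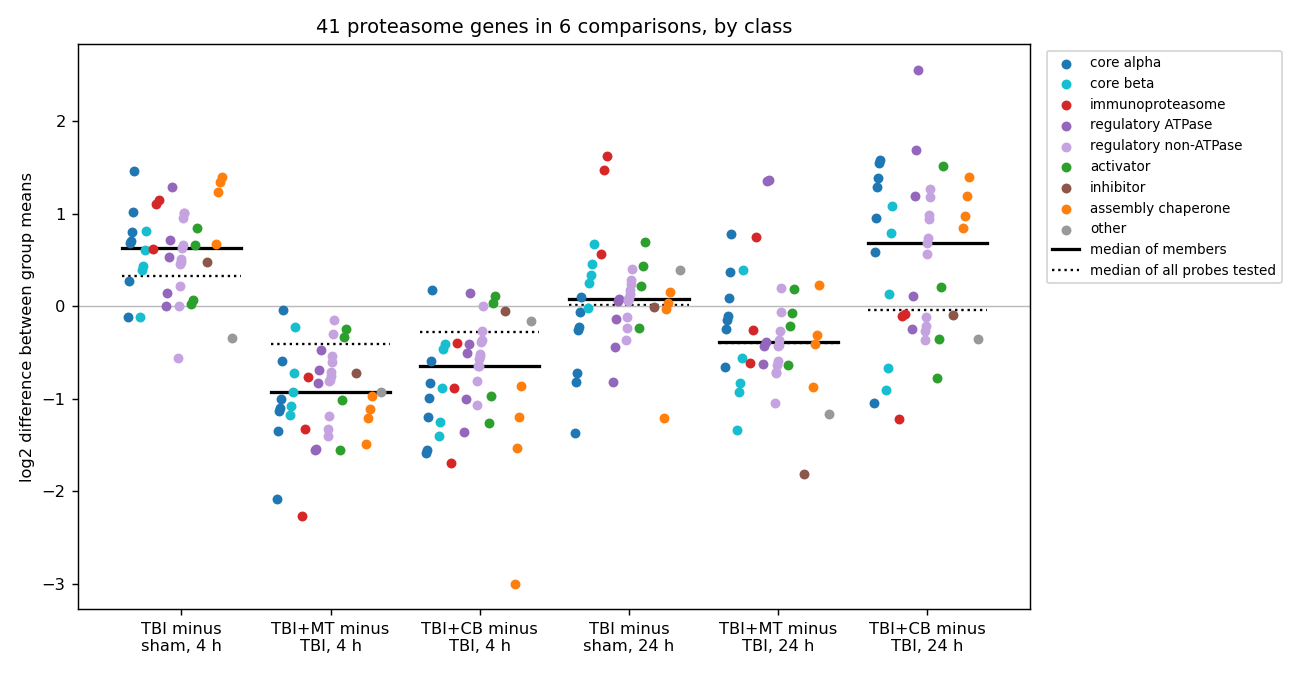
Each point is the log2 difference between group means (y axis) of 1 of the 41 proteasome genes in 6 comparisons (x axis), coloured by class, with the median of the members as a solid line and that of all probes tested as a dotted line. The median of the members lies above that of all probes after injury at 4 h (0.63 against 0.33) and below it with either drug at 4 h (-0.92 against -0.40 and -0.65 against -0.28).

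With metyrapone at 4 h all 41 members had lower group means than after injury alone, where 29.6% of all probes were higher. The median difference was -0.92 against -0.40 for all probes. These are values of the 1 probe used for each gene. The second probe of Psmb3 was higher with metyrapone (0.21), where the probe used gave -0.22. Over 2-fold lower were 19 members (25.1% of all probes), and in 25 both TBI+MT pools lay below both TBI pools (33.6%). No member passed the adjusted threshold in limma (0.0% of all probes). At an unadjusted p under 0.05 there was 1 member, Psmd9 (4.73% of all probes). The 2 pools of TBI+MT differed, and without pool 1 the median was -0.38, without pool 2 -1.59. TBI enters this comparison, that with carbenoxolone and that with sham, so they share its pools.

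Psmd9 read 2.07 and 5.02 in TBI+MT against 7.5 and 10.9 in TBI, a difference of -1.49 (SE 0.67, adjusted p = 0.736 in limma). Psme4, which encodes a large single-chain activator of the core, read 2.16 and 8.36 against 11.4 and 13.6 in TBI and 7.66 and 6.25 in sham, a difference from TBI of -1.55 (SE 0.76, adjusted p = 0.736 in limma). For both genes the TBI+MT pools lay below the TBI pools and on either side of the sham pools. Class medians ran from -0.67 for the activators to -1.33 for the immunoproteasome subunits, with -1.10 for core alpha, -0.92 for core beta, -0.83 for the ATPases, -0.75 for the non-ATPase subunits and -1.16 for the chaperones. Both drug groups shared a run with TBI pool 2 only, and with the run as a block the median over members was -0.97. It is given without that of all probes, so it does not set the members apart from the array.

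With carbenoxolone at 4 h, 37 of 41 members were lower than after injury alone and 4 were higher (36.7% of all probes were higher), with a median of -0.65 against -0.28. Over 2-fold lower were 13 members (15.9%), and in 29 both TBI+CB pools lay below both TBI pools (34.6%). No member passed the adjusted threshold in limma (0.0% of all probes), and 3 had an unadjusted p under 0.05 (3.44%): Psmg2, Psmb2 and Psmd9. Psmg2 was above background on only 1 of the 4 TBI+CB arrays, so the size of its difference is uncertain. It read 0.531 and 0.995 against 4.84 and 6.96 in TBI, 1.56 and 4.04 in TBI+MT and 2.35 and 2.22 in sham, a measured difference from TBI of -3.00 (SE 0.87, adjusted p = 0.957 in limma). Its TBI+CB pools lay below all 6 other pools of that time. Psmb2, a core beta subunit without catalytic activity, read 1.63 and 2.35 against 4.66 and 5.72, a difference of -1.40 (SE 0.55, adjusted p = 0.957 in limma). Psmd9 read 2.75 and 3.57, a difference of -1.53 (adjusted p = 0.957 in limma).

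Psma7 and Psme3 were among the few members that did not stand lower with carbenoxolone. Psma7 read 48 and 30.5 in TBI+CB against 26.1 and 43.7 in TBI, a difference of 0.18 (SE 0.57). Psme3 read 142 and 89.1 against 79 and 136, a difference of 0.12 (SE 0.49), while its dim second probe gave -0.91. The groups overlapped for both genes, and with the run as a block the differences were -0.19 and -0.28. With that block the median of all 41 members was -0.79, given without that of all probes. Without the block, and relative to the median of all probes, the members stood at -0.52 with metyrapone and -0.37 with carbenoxolone. Quantile normalization gave -0.52 and -0.36. With single pools left out this gap ran from -0.98 to -0.13 with metyrapone and from -0.48 to -0.37 with carbenoxolone.

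Markers of other cells were set beside the members at 4 h. The 6 astrocyte markers kept had medians of 0.84 for injury, -0.97 with metyrapone and -0.52 with carbenoxolone, and the 6 interneuron markers 0.42, -1.26 and -0.85, the same directions as the members. The 8 microglial markers had medians of -0.32, -0.58 and -0.20, and the 8 endothelial and pericyte markers -0.12, -0.83 and -0.44, so that both lists stood on the other side of 0 from the members for injury, with 6 of 8 lower in each. The 5 oligodendrocyte markers had 0.074, -0.44 and -0.16, and the 4 pyramidal neuron markers 0.12, -0.17 and -0.13. In limma 0 of these markers passed the adjusted threshold, while at an unadjusted p under 0.05 there were 1, 0 and 0 astrocyte, 1, 2 and 2 interneuron, 0, 2 and 1 microglial and 2, 3 and 1 endothelial and pericyte markers in the 3 comparisons. The part of other cells in the proteasome values was not tested.

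The drugs set against each other at 4 h gave a median of -0.20 for TBI+MT minus TBI+CB, the same as for all probes (-0.20). Of 41 members, 11 were higher with metyrapone (34.6% of all probes). None passed the adjusted threshold in limma (0.0%), and none had an unadjusted p under 0.05 (3.11%). Without TBI+MT pool 1 the median was 0.43, and without pool 2 it was -0.80.

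**Figure D3:**
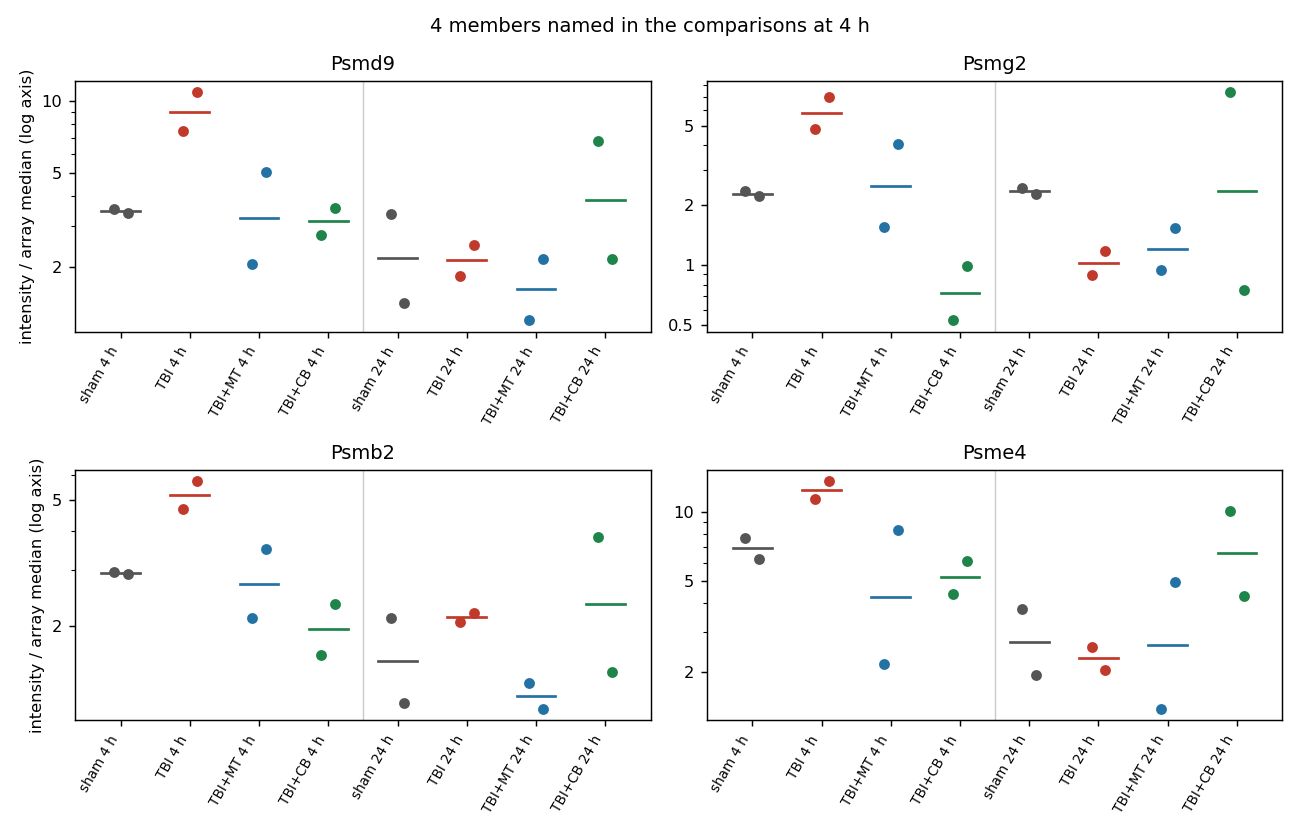
Intensity over the array median (log axis) of Psmd9, Psmg2, Psmb2 and Psme4 in the 16 pools, with 1 point a pool and a bar at the mean of the log values of each group. Both TBI pools at 4 h stand above both sham pools and above the drug-treated pools of that time in each panel, and at 24 h the TBI+CB pools are far apart, as for Psmg2 at 7.35 and 0.749.

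At 24 h injury alone and sham had nearly the same proteasome values. Of 41 members, 24 were higher in TBI (51.0% of all probes) and the median was 0.076 against 0.012. Both TBI pools exceeded both sham pools in 5 members (13.2% of all probes). No member passed the adjusted threshold in limma (0.0%), and none had an unadjusted p under 0.05 (1.84%). All 4 pools were in the same run. The sham pools differed: without pool 1 the median was 0.57, and without pool 2 it was -0.46. Psma4, a core alpha subunit, read 21.6 and 8.12 in sham and 3.63 and 7.28 in TBI, a difference of -1.36 (SE 0.94, adjusted p = 1 in limma). Psmg2 read 2.45 and 2.29 in sham and 0.891 and 1.18 in TBI, a difference of -1.20 (SE 0.87, adjusted p = 1 in limma). TBI was lower without overlap for both genes. The change in the effect of injury from 4 to 24 h had a median of -0.48 (all probes -0.29), which was 0.059 with quantile normalization and 0.0087 without sham pool 1 of 24 h. In limma 0 members passed the adjusted threshold (0.0%), and 0 had an unadjusted p under 0.05 (2.35%).

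Psmb8 and Psmb9 had the 2 largest positive differences between injury and sham at 24 h. Psmb8 read 12 and 38.4 in sham and 106 and 41.4 in TBI, a difference of 1.62 (SE 0.90, adjusted p = 1 in limma). The lower TBI pool was only slightly above the higher sham pool. Psmb9 read 0.879 and 0.499 in sham, where it was not well above background on any array, and 1.89 and 1.79 in TBI, at least 1.58-fold higher, with a measured difference of 1.47 (adjusted p = 1 in limma). Psmb10 read 22.6 and 9.38 in sham and 15.7 and 29.6 in TBI, a difference of 0.56 with overlapping pools. The activator subunit Psme1 read 9.89 and 12.6 in sham and 16.8 and 19.4 in TBI, a difference of 0.69 (SE 0.53, adjusted p = 1 in limma), without overlap. Its partner Psme2 read 15.8 and 8.56 in sham and 14 and 17.7 in TBI, with overlap.

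At 4 h the same genes had another order. Psmb8 read 5.93 and 33.2 in sham and 23.7 and 40.9 in TBI, so that its difference of 1.15 (adjusted p = 0.936 in limma) rested on sham pool 1 and was -0.090 without it. Psmb9 read 1.4 and 1.5 in sham, 2.15 and 4.5 in TBI, 0.295 and 1.41 in TBI+MT and 0.421 and 2.2 in TBI+CB. Its difference was 1.10 for injury (adjusted p = 0.936 in limma) and -2.27 for metyrapone (adjusted p = 0.736 in limma). Psmb10 read 30.5 and 25.2 in sham, 29.4 and 61.7 in TBI, 11.8 and 24.3 in TBI+MT and 27.5 and 19.4 in TBI+CB, and its drug-treated pools all lay below the TBI pools. The only catalytic pair with a named probe for both partners was Psmb10 and the constitutive subunit whose place it takes, Psmb7. The log2 ratio of Psmb10 to Psmb7, readable only as change between pools, was -0.50 and -0.89 in sham and -1.06 and -0.32 in TBI at 4 h, and -1.15 and -1.74 in sham and -2.19 and -0.92 in TBI at 24 h. The groups overlapped at both times, with no shift from the constitutive to the inducible partner beyond the spread of the pools.

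Microglial genes and Psmb8 were both higher after injury at 24 h. At 4 h the mean of Psmb8 was higher after injury, while the median of the microglial markers was lower. The summed level of the microglial markers was 37.2 and 67.7 in sham and 151 and 134 in TBI at 24 h, and 113 to 175 in the drug-treated pools. Most of the sum in TBI pool 1 at 24 h came from Csf1r at 88.0 and Tyrobp at 40.3. Of the 11 markers, all with a probe, 8 were kept. All 8 were higher in TBI than sham at 24 h (51.0% of all probes), by a median of 1.52. In limma 4 had an unadjusted p under 0.05 (1.84% of all probes) and 0 passed the adjusted threshold (0.0%). At 4 h the summed level was 53.1 and 149 in sham and 42.2 and 54.4 in TBI. The 8 kept had a median of -0.32 there, where Psmb8 stood at 1.15, or at -0.090 without sham pool 1. Psmb8 and the microglial sum were both lower in sham pool 1 than in sham pool 2 at 4 h. With carbenoxolone at 24 h Psmb8 read 41 and 19.8, a difference from TBI of -1.22, while the microglial sums were 151 and 156. Tyrobp, a microglial signalling adaptor, read 8.27 and 13.9 in sham and 40.3 and 46.8 in TBI at 24 h. At 4 h it read 8.86 and 27.4 in sham and 9.72 and 12.2 in TBI, where Psmb8 read 5.93 and 33.2 and then 23.7 and 40.9. Ptprc was above background on no array and P2ry12 on 1 of 32. The part of microglial RNA in the Psmb8 values was not tested.

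**Figure D4:**
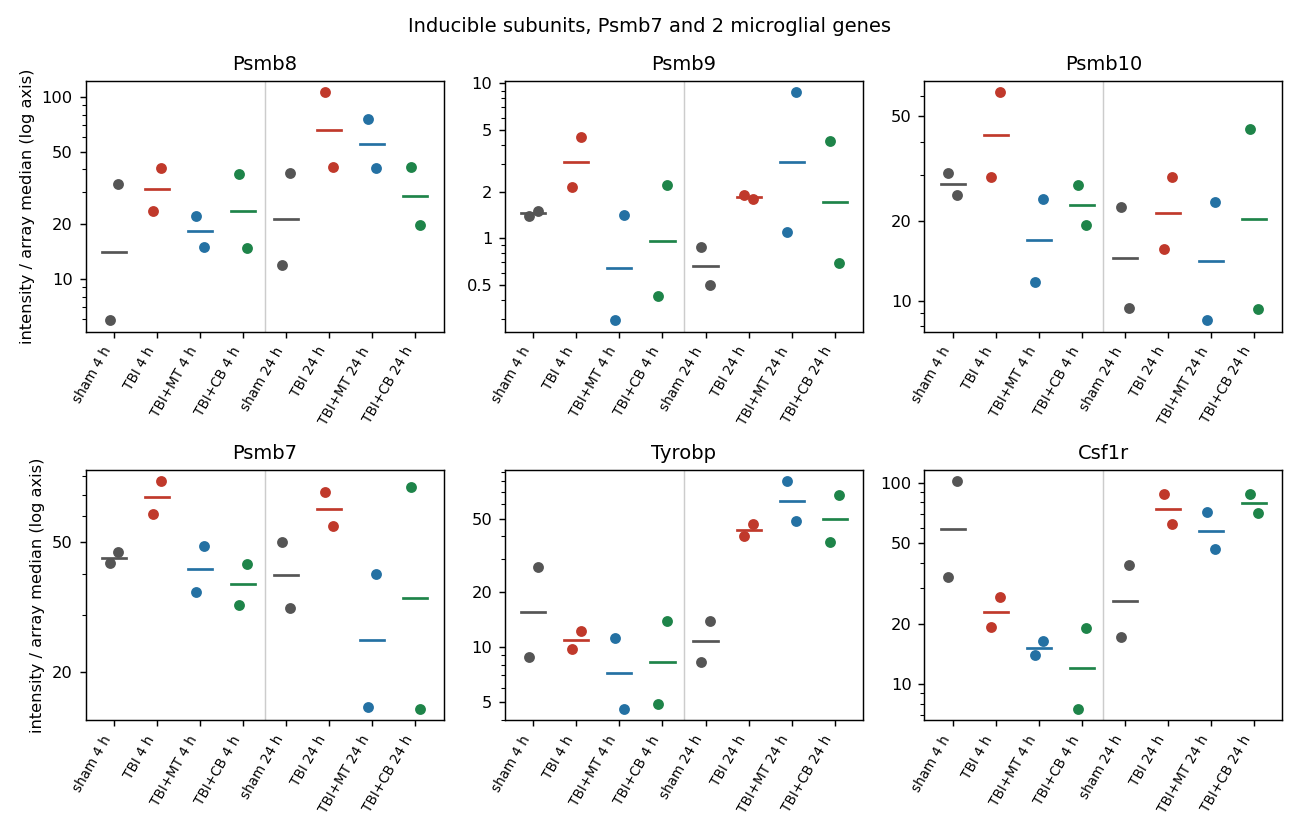
Intensity over the array median (log axis) of Psmb8, Psmb9, Psmb10, the constitutive Psmb7 and the microglial genes Tyrobp and Csf1r in the 16 pools, with 1 point a pool and a bar at the mean of the log values of each group. Psmb8 and Tyrobp are both lower in sham pool 1 than in sham pool 2 at 4 h, and higher in TBI than in sham at 24 h. In TBI at 4 h Psmb8 reads 23.7 and 40.9 and Tyrobp 9.72 and 12.2, and levels of different probes are not comparable.

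With metyrapone at 24 h the members followed the rest of the array. The median difference from TBI was -0.39 for members and for all probes. Of 41 members, 10 were higher (26.0% of all probes), and in 9 both TBI+MT pools lay below both TBI pools (28.6%). None passed the adjusted threshold in limma (0.0%), and none had an unadjusted p under 0.05 (5.51%). Psmb7 read 15.6 and 40 against 71.5 and 56 in TBI, a difference of -1.34 (SE 0.70, adjusted p = 0.916 in limma), without overlap. Psmf1, the inhibitor of the core, read 0.104 and 1.64 against 1.19 and 1.77, a difference of -1.81 (SE 1.00) that came from pool 1 and was 0.18 without it. Of the ATPases, Psmc5 read 0.646 and 0.751 against 0.411 and 0.182 in TBI, where it was not well above background on any array, a measured difference of 1.35 (SE 1.09, adjusted p = 0.925 in limma) for which no fold is given. Psmc6 read 0.667 and 4.02 against 0.604 and 0.666, at least 1.41-fold higher, with a measured difference of 1.37 (SE 1.42) that came from pool 2 and was 0.073 without it. Without pool 1, in which 21 of the 41 members were above background on both arrays, the median over members was 0.48 instead.

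With carbenoxolone at 24 h the members had a median difference from TBI of 0.68, where all probes had -0.038. Of 41 members, 26 were higher (48.7% of all probes), 13 were over 2-fold higher (14.3%), and in 7 both TBI+CB pools exceeded both TBI pools (16.0%). No member passed the adjusted threshold in limma (0.0%), and 1, Psmc5, had an unadjusted p under 0.05 (8.22%). The value rested on pool 1: without it the median was -0.51, and without pool 2 it was 1.61. Among the 21 members above background on all arrays it was -0.078. In 4 members (Psma1, Psmb1, Psmc5 and Psmc6) the probe was not well above background on any TBI array, and with these at their bounds the median was 0.48. Psmc5 read 3.53 and 0.734 against 0.411 and 0.182 in TBI, where it was not well above background on any array, at least 1.39-fold higher, with a measured difference of 2.56 (SE 1.09, adjusted p = 0.592 in limma). Psme4 read 10.1 and 4.3 against 2.57 and 2.05, a difference of 1.52 (SE 0.76, adjusted p = 0.592 in limma), without overlap. Psma7 read 22.3 and 29.3 against 56 and 49.9, a difference of -1.05 (SE 0.57, adjusted p = 0.604 in limma), and Psme3 read 78.6 and 83.9 against 145 and 133, a difference of -0.77 (SE 0.49, adjusted p = 0.621 in limma). The probes used for these 2 genes, higher in the dimmer pool throughout, were lower in both TBI+CB pools than in both TBI pools. By slide number the drug groups at 24 h formed a run of their own, so at that time drug and run cannot be told apart.

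The effect of carbenoxolone differed between times by a median of 1.55 over the members (24 h minus 4 h, all probes 0.25), with 0 members past the adjusted threshold in limma (0.0%) and 3 with an unadjusted p under 0.05 (7.75%). These were Psmg2 at 4.19, Psme4 at 2.78 and Psmd9 at 2.38 (adjusted p = 0.574 in limma for each). Without TBI+CB pool 1 at 24 h the median was 0.37. For metyrapone the difference between times had a median of 0.39 (all probes -0.0049), which was -0.045 with quantile normalization, -0.047 without TBI+MT pool 1 of 4 h and -0.24 without TBI+MT pool 2 of 24 h, with 0 members past the adjusted threshold in limma (0.0%) and 0 with an unadjusted p under 0.05 (4.67%). The drugs set directly against each other at 24 h, both in 1 run, gave a median of -0.95 for TBI+MT minus TBI+CB against -0.29 for all probes. Of 41 members, 8 were higher with metyrapone (37.9% of all probes) and 18 were over 2-fold lower (22.4%). None passed the adjusted threshold in limma (0.0%), and none had an unadjusted p under 0.05 (5.07%). Without TBI+CB pool 1 the median was -0.076, and without TBI+MT pool 1 it was 0.065. In the moderated F test over the 8 groups 0 members passed the adjusted threshold (0.0% of all probes) and 0 had an unadjusted p under 0.05 (5.54%), and the lowest adjusted p among members was 0.858.

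Where a gene had several probes, they could differ. The dim probe of Psme3, with a mean of 0.985, was not well above background on any TBI array at 24 h and stood at least 1.95-fold higher with carbenoxolone, where the bright probe gave -0.77. The second probe of Psmb3 gave -2.45 in the same comparison (SE 0.54, adjusted p = 0.592 in limma), where the probe used gave -0.67. It was not counted above, since 1 probe stood for each gene. That of Psmd11 gave 0.61 for carbenoxolone at 24 h where the probe used gave -0.27.

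Partners of the proteasome in the ubiquitin pathway, 37 genes of which 28 had a probe and 24 were kept, gave medians close to those of the members. After injury at 4 h the median was 0.73 (all probes 0.33), with 20 of 24 higher (69.1% of all probes). With metyrapone at 4 h it was -1.18 (all probes -0.40), with 14 over 2-fold lower (25.1% of all probes), and with carbenoxolone -0.66 (all probes -0.28). At 24 h it was -0.11 for injury, -0.23 for metyrapone and 0.60 for carbenoxolone, where all probes had 0.012, -0.39 and -0.038. None passed the adjusted threshold in limma in any of these comparisons. Nfe2l1, the factor that drives subunit genes when the proteasome is short, read 38.6 and 44.6 in sham and 35.9 and 44.9 in TBI at 4 h, and its levels overlapped. Nfe2l2 read 2.32 and 5.29 in sham, 4.63 and 13.4 in TBI and 0.724 and 4.04 in TBI+MT, a difference between the latter of -2.20 (adjusted p = 0.736 in limma). Zfand2a, a stress-induced protein that associates with the proteasome, read 1.14 and 1.09 in sham, 1.37 and 1.36 in TBI, 0.203 and 1.03 in TBI+MT and 0.32 and 0.527 in TBI+CB at 4 h. Its difference from TBI was -1.58 with metyrapone (adjusted p = 0.736 in limma), and with carbenoxolone, where it was not well above background, it stood at least 1.26-fold lower (measured difference -1.73, adjusted p = 0.957 in limma). At 24 h it was not well above background in sham or TBI and read 0.879 and 1.12 in TBI+MT and 1.28 and 0.558 in TBI+CB.

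Genes of antigen presentation and interferon response, 19 of which 15 had a probe and 10 were kept, were higher after injury at 24 h in 9 of 10 (51.0% of all probes), by a median of 1.16 (all probes 0.012). Of these, 1 had an unadjusted p under 0.05 (1.84% of all probes) and 0 passed the adjusted threshold in limma. The size of the median is uncertain, since Tapbp, Isg15 and Tap1 were not well above background on any sham array, nor B2m on any TBI array. Tapbp stood at least 1.25-fold and Isg15 at least 2.81-fold higher, and no fold is given for B2m. Tap1, which carries the peptides made by the proteasome into the endoplasmic reticulum, read 0.43 and 0.692 in sham, where it was not well above background, and 2.54 and 1.59 in TBI, at least 1.8-fold higher (measured difference 1.88, adjusted p = 1 in limma). Irf9, a transcription factor of interferon signalling, read 6.89 and 10.2 in sham and 21.7 and 23.7 in TBI, a difference of 1.43 (adjusted p = 1 in limma). At 4 h the median of this list was 0.41 for injury, -1.01 with metyrapone and -0.25 with carbenoxolone. Pool by pool at 24 h the list did not run beside the microglial markers throughout. Its summed level was 25.8 in TBI+MT pool 1, where the microglial sum was 175, and 68.1 in TBI+CB pool 1, where it was 151. These were the dimmest and the brightest pool of that time, with 27.7% and 58.0% of probes above background. The part of brightness in these sums was not tested.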

How the data were processed

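Rat whole-genome CodeLink arrays were hybridised with cRNA made by 2 rounds of amplification from captured neurons. The deposited raw intensity of each spot was divided by the array median given in the file headers, as the authors did to make their normalized intensity; whether local background had been subtracted is not given in the sources used here. Irregular and masked spots were left out, values were floored at 0.1 array medians, log2 was taken, and duplicate arrays were averaged to 1 value per pool. Probes had to exceed background on all 4 arrays of some group. limma 3.58.1 in R 4.3.3 (lmFit, eBayes) was fitted to all 16 pools and all kept probes, with group as the only term and Benjamini-Hochberg adjustment over all of them at 0.05. With 2 pools against 2 an exact permutation test of a single gene could not give a two-sided p below 0.333, so limma's shared variance carries the tests.

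For a gene with several kept probes the probe with the highest mean was used. Named with values were the inducible and activator subunits, Psmb7, Psma5 and Psmd9, and in each of the 6 comparisons with sham or with TBI the 2 members of smallest p on each side. Genes named for their spread over pools, for brightness of the pools or for a second probe were chosen after their values were seen. The members and all gene lists were chosen with earlier results of these data known. A fold against a group in which a probe was below background on every array was given as a bound. Alternatives covered scaling, the deposited value table, floors, probe filters, arrays, slide run, pool number and each pool left out. The fit was tested on simulated data with the spread of each real probe. It called 0 of 50 probes with a log2 difference of 1, 7 of 50 with 2, and 28 of 50 with 4. A member that did not pass the adjusted threshold may thus still differ. The number of arrays limits the precision: duplicate arrays had a median r of 0.975 and pools of a group 0.873 over probes.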

Additional observations from a re-analysis of the deposited data

How the results depend on the processing

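In all 32 settings beside the reported one, 16 of which left out 1 pool each, limma called 0 members in every comparison that could be fitted, while at most 70 probes of the array were called in any setting and comparison. A replicate block (pool number within each time) was bound to leave the differences as they were, since every group holds 1 pool of each number. Its medians over members at 4 h, 0.63 for TBI against SHAM, -0.92 for metyrapone and -0.65 for carbenoxolone, are therefore no check. The numbers did not pair the samples, since the pool deviations of groups of the same time had correlations of -0.57 to 0.38. The median for metyrapone at 24 h was 0.48 with both 24 h pools under 35% of probes above background left out, and -1.03 to 0.48 with single pools left out. For carbenoxolone at 24 h it was -0.078 over probes above background on all 32 arrays and 1.61 without those dim pools, and -0.51 to 1.61 with single pools left out. For the drugs against each other at 24 h it was -1.90 to 0.065. For the difference between times it was 1.37 for metyrapone without the dim pools, -0.045 with quantile normalization, and -0.24 to 1.37 with single pools left out. For carbenoxolone this difference was 0.61 over probes above background on all arrays, 2.31 without the dim pools, and 0.37 to 2.31 with single pools left out. The other medians moved by less than 1 SD of the pools (0.719), but some changed sign. The change in the effect of injury from 4 to 24 h was 0.059 with quantile normalization and -0.94 to 0.0087 with single pools left out, injury at 24 h was -0.46 to 0.57, and the drugs against each other at 4 h gave -0.80 to 0.43. Direction turned in 7 named differences. With the slide run as a block Psmd8 for injury at 4 h was 0.62, and for carbenoxolone at 4 h Psma7 was -0.19 and Psme3 -0.28. Psmf1 for metyrapone at 24 h was 0.18 without the dim pools. With single pools left out, Psmd8 ranged from -1.73 to 0.62, Psmc3ip for injury at 4 h from -0.94 to 0.26, Psma7 from -0.19 to 0.55, Psme3 from -0.28 to 0.51, Psmf1 from -3.80 to 0.18, Psmb8 for injury at 4 h from -0.090 to 2.39, and Psmb10 for injury at 24 h from -0.071 to 1.20. The cause was not tested. The choice to leave out the dim pools was made after seeing the data. Correction with normexp was not run, since the files used here hold no spot mean and local background. No run block could be had for the 24 h drug groups. Signal over background limits the low members: 21 of 41 were above background on all arrays.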
